A study of Rattus norvegicus with 9 samples.

Results

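The genes for 7 enzymes that remove superoxide and peroxides were followed in rat lung under 4 conditions of breathing: the superoxide dismutases Sod1, Sod2 and Sod3, catalase (Cat), and the glutathione peroxidases Gpx1, Gpx3 and Gpx4. They were found by gene symbol in the annotation of the array, which gave them 15 probe sets of their own out of 8740 that were not controls. A probe set is a group of short array probes against 1 transcript, and its value is a brightness. After the dimmest probe sets of the array were set aside, 12 of these 15 were among the 5244 that were tested, and each of the 7 genes kept at least 1. A further probe set named Gpx4 together with other genes and was left out.

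The study measured total RNA of rat lung on 9 arrays, in rats on spontaneous breathing or on mechanical ventilation, each with 21% or 100% oxygen. Each of the 4 groups had 2 samples, lettered a and b. For mechanical ventilation with 100% oxygen, sample b had 2 arrays, which were averaged and counted as 1 sample. Strain, sex, age, time of exposure and ventilator settings are not given by the labels, which name no genotype and no further agent. No label says that letters a and b were separate rats, so the p-values below take in the spread of these samples and nothing wider, and that spread may be technical only.

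Superoxide dismutases turn superoxide into hydrogen peroxide. Sod1 uses copper and zinc and works mainly in the cytosol, Sod2 uses manganese and works in mitochondria, and Sod3 is the copper and zinc enzyme secreted into the space between cells, for which lung and vessel walls are rich sources. Catalase breaks hydrogen peroxide down in peroxisomes, and the selenium-containing glutathione peroxidases do so with glutathione: Gpx1 inside cells, Gpx3 in plasma and lining fluids, and Gpx4 on lipid peroxides in membranes. High oxygen raises the production of these reactive species in lung, which is why the family is often measured there.

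The sequences before the starts of 3 members are shown because these genes had different patterns over the 4 groups: in spontaneous breathing with oxygen a Sod1 probe set rose and both tested Cat probe sets fell, and Sod2 rose with ventilation at 21% oxygen. RefSeq on build GRCr8 had an entry for 6 of the 7 genes. Each window of 300 bases runs 5′ to 3′ on the strand of the gene, from 250 bases before to 50 after the start. Capitals mark matches, on either strand, to the core of the antioxidant response element (TGACNNNGC), the GC box (GGGCGG), the AP-1 site (TGACTCA), the E-box (CACGTG) and the TATA box (TATAAA). Sod1 lies at chr11:42942573-42942872 on the plus strand, Sod2 at chr1:50050119-50050418 on the minus strand, and Cat at chr3:110329477-110329776 on the minus strand.
Sod1: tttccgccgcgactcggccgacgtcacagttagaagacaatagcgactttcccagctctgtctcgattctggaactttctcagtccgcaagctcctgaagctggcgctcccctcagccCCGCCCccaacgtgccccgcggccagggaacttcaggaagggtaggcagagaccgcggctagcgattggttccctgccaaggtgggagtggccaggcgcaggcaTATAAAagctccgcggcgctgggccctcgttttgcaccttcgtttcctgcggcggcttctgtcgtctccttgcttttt
Sod2: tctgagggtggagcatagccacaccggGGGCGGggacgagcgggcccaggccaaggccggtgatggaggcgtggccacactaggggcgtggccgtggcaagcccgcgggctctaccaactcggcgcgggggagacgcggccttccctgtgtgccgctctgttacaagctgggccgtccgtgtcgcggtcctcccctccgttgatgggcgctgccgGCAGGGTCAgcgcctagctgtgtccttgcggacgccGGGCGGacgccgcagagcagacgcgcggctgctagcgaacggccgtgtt
Cat: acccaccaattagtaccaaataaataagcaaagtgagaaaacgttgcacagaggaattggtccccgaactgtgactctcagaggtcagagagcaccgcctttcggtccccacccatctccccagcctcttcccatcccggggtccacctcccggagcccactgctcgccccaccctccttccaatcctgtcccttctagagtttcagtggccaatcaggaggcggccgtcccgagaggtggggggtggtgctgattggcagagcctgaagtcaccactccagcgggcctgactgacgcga

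The Sod2 window held 1 match to the antioxidant response core and 2 to the GC box. The Sod1 window held 1 GC box and 1 TATA box, and the Cat window held none of the 5 motifs. Of all 33469 rat promoter windows of this length, 12.1% held the antioxidant response core, 33.1% the GC box, 4.6% the AP-1 site, 6.4% the E-box and 14.2% the TATA box. Among the members without a printed sequence, Gpx1 had 1 GC box and 1 E-box, Gpx3 had 1 GC box, and the 3 Gpx4 windows had 4, 4 and 2 GC boxes, some of which overlap. A match describes the letters of a window and shows no binding.

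Values are deposited intensities, on which each array had been brought to a common mean. They are given without units and compared between samples within a probe set, never between probe sets. The changes and their standard errors are log2 differences of (intensity + 40) from a limma fit over all 5244 probe sets and 8 samples. A change was called when limma's Benjamini-Hochberg adjusted p over those probe sets was under 0.05, and "rose" and "fell" are kept for called changes. Arrays of mechanical ventilation with 100% oxygen had a lower ceiling than the others: the 99th percentile of their values was at most 8352, against at least 9934 elsewhere. Of the 12 tested member probe sets, 6 were among the brightest 5% of the array. Called member changes within a level that involve this group, and called member interactions, are therefore also given after quantile and cyclic loess normalization. Both make the arrays' distributions more alike. Averaged comparisons and genes of other lists are not all given in this way. Of the defining markers of lung epithelium, 5 (Sftpa1, Sftpb, Sftpc, Ager and Scgb1a1) were at 3543 or more in every sample. The alveolar type 1 marker Pdpn was at 4270 or more, and Aqp5, another of that list, was between 989 and 1505.

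**Figure D1:**
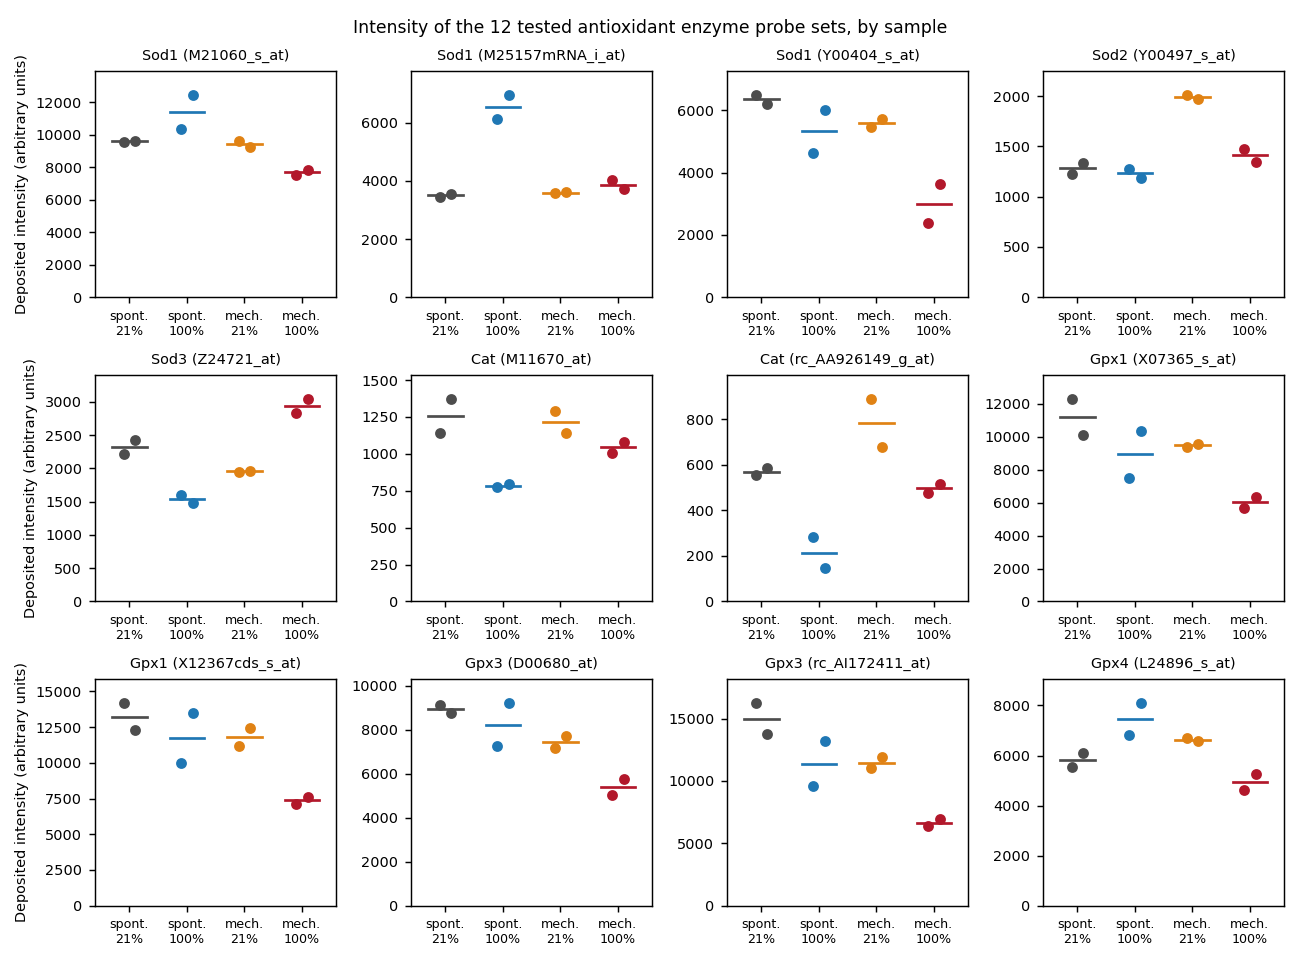
Deposited intensity (vertical axis, no unit) of each tested probe set of the 7 genes, with 1 panel per probe set, points for the 2 samples of each group and a bar at their mean. Sod2 was highest in mechanical ventilation with 21% oxygen, Sod3 in mechanical ventilation with 100% oxygen, and the probe sets of Cat were lowest in spontaneous breathing with 100% oxygen.

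Sod3 had the largest interaction of ventilation and oxygen among the 12 tested probe sets. Its intensity was 2220 and 2426 in spontaneous breathing with 21% oxygen (letters a and b) and 1606 and 1485 with 100% oxygen. Under mechanical ventilation it was 1948 and 1961 with 21% oxygen and 2837 and 3039 with 100% oxygen. The 4 groups did not overlap, and oxygen went with a lower value in spontaneously breathing lungs and a higher value in ventilated ones. In limma, Sod3 fell by 0.58 ± 0.11 (SE) with oxygen in spontaneous breathing, which is 1.49-fold (adjusted p = 0.0151). It rose by 0.58 ± 0.11, also 1.49-fold, in mechanical ventilation (adjusted p = 0.00699). The difference between these oxygen changes, the interaction, was 1.15 ± 0.16 (limma, adjusted p = 0.00219).

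With 100% oxygen, mechanically ventilated lungs had 1.88-fold more Sod3 signal than spontaneously breathing ones, a rise of 0.91 ± 0.11 (limma, adjusted p = 0.00213). With 21% oxygen the change was -0.24 ± 0.11 and was not called (limma, adjusted p = 0.196). Quantile normalization gave 0.47 for oxygen in mechanical ventilation (adjusted p = 0.0129), 0.78 for ventilation at 100% oxygen (0.0034) and 1.07 for the interaction (0.00257). Cyclic loess gave 0.54 (0.00885), 0.86 (0.00273) and 1.09 (0.00264), so these 3 changes kept their direction and call under both scalings. The calls for oxygen under mechanical ventilation and for ventilation at 100% oxygen were kept with each of the 8 samples left out in turn, with adjusted p-values of at most 0.0404 and 0.0221. The fall in spontaneous breathing lost its call without the letter b sample of 21% oxygen (limma, adjusted p = 0.057) or that of 100% oxygen (0.0709). The other Sod3 probe set was too dim to test, between -40.7 and 304 in all samples. Sums over 13 of 14 skeletal muscle markers were 26150 to 27010 in spontaneous breathing with 100% oxygen, where Sod3 was lowest, against at most 8322 elsewhere, and their part in the result was not tested. In a tissue sample, fewer cells of a type and less RNA per cell cannot be told apart.

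Sod2, the mitochondrial dismutase, stood out in ventilated lungs with 21% oxygen. Its intensity there was 2012 and 1970, against 1225 and 1338 in spontaneous breathing with 21% oxygen. With 100% oxygen it was 1273 and 1190 in spontaneous breathing and 1471 and 1350 in mechanical ventilation. The lowest of the ventilated samples with 21% oxygen was above the highest sample of every other group, while the 2 spontaneous groups overlapped.

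Ventilation with 21% oxygen went with a 1.54-fold rise of Sod2, by 0.62 ± 0.12 (limma, adjusted p = 0.0146). With oxygen, Sod2 fell by 0.49 ± 0.12 in ventilated lungs (limma, adjusted p = 0.0157), and its change in spontaneous breathing was -0.06 ± 0.12 (adjusted p = 0.793). The interaction of -0.43 ± 0.17 missed the threshold on the deposited scale (limma, adjusted p = 0.0948) and passed it after quantile normalization at -0.58 (0.0362) and after cyclic loess at -0.62 (0.027). The fall with oxygen in ventilated lungs was -0.63 (0.00608) and -0.65 (0.00542) after these scalings. The rise with ventilation lost its call without the letter a sample of spontaneous breathing with 21% oxygen (limma, adjusted p = 0.0551) or without either ventilated sample (0.0746 and 0.0756). The fall with oxygen lost its call without letter b of mechanical ventilation with 100% oxygen (0.0706) or either sample with 21% oxygen (0.0747 and 0.0683).

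Markers of other cells and tissues had the same high group as Sod2. Sums over 10 of 11 T lymphocyte markers were 33360 to 35100 in mechanical ventilation with 21% oxygen and at most 3066 in the other groups, and Cd3g, a chain of the T cell receptor complex, was at 5033 and 5077 there. Sums over 8 of 9 fat markers were 20300 to 21620 in this group and at most 11700 in the others. Sums over 5 of 8 neutrophil markers were 22230 to 22280 in this group and at most 20110 in the others. Within that list the mean of S100a9 was 10175 in this group and 10192 in spontaneous breathing with 21% oxygen. No defining marker of these lists was at 0 in any sample, and the part of these cells and tissues in the Sod2 values was not tested.

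Sod1, the cytosolic dismutase, gave a different picture with each of its 3 probe sets. M25157mRNA_i_at was at 3465 and 3566 in spontaneous breathing with 21% oxygen and at 6127 and 6960 with 100% oxygen. It was at 3589 and 3613 in mechanical ventilation with 21% oxygen and at 4029 and 3728 with 100% oxygen. Only the spontaneous samples with 100% oxygen stood clearly above the rest. The rise with oxygen in spontaneous breathing was 1.85-fold, 0.89 ± 0.11 (limma, adjusted p = 0.00262), and the change in mechanical ventilation was 0.10 ± 0.11 (adjusted p = 0.513). The interaction was -0.78 ± 0.16 (limma, adjusted p = 0.00925), and with 100% oxygen the signal fell by 0.75 ± 0.11 under ventilation (adjusted p = 0.00422). Leaving out any sample kept all of these calls, and so did both other scalings. Quantile normalization gave 0.73 for oxygen in spontaneous breathing, -0.68 for ventilation at 100% oxygen (adjusted p = 0.00339) and -0.64 for the interaction (0.0107), and cyclic loess gave -0.62 (0.0072) and -0.67 (0.0124) for the last 2.

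The Sod1 probe set M21060_s_at was at 9595 and 9627 in spontaneous breathing with 21% oxygen and at 10395 and 12467 with 100% oxygen. Ventilated samples were at 9605 and 9256 with 21% oxygen and at 7561 and 7833 with 100% oxygen. The lowest group was mechanical ventilation with 100% oxygen, and the groups with 21% oxygen overlapped. With 100% oxygen it fell by 0.57 ± 0.12 under ventilation (limma, adjusted p = 0.0141), with an interaction of -0.54 ± 0.17 (adjusted p = 0.0486). After quantile normalization these were 0.02 (adjusted p = 0.883) and -0.03 (0.869), and its oxygen change in ventilated lungs went from -0.30 (0.0922) to 0.31 (0.017). After cyclic loess these 3 changes were -0.20 (0.112), -0.20 (0.246) and 0.08 (0.503). Its oxygen change in spontaneous breathing kept 1 direction, at 0.24 ± 0.12 on the deposited scale (0.199), 0.34 after quantile normalization (0.0227) and 0.27 after cyclic loess (0.0513). The fall lost its call without either sample of mechanical ventilation with 100% oxygen (0.0881 and 0.0544). The interaction kept its call only without the letter a sample of spontaneous breathing with 100% oxygen, and was otherwise between 0.0671 and 0.144 with 1 sample left out.

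The Sod1 probe set Y00404_s_at was at 6488 and 6202 in spontaneous breathing with 21% oxygen and at 4636 and 6006 with 100% oxygen. Ventilated samples were at 5466 and 5721 with 21% oxygen and at 2385 and 3619 with 100% oxygen, below all others. It fell by 0.92 ± 0.20 with oxygen in ventilated lungs, 1.89-fold (limma, adjusted p = 0.0098), and by 0.84 ± 0.20 with ventilation at 100% oxygen (adjusted p = 0.0197). After quantile normalization the changes were -0.95 (0.0101) and -0.86 (0.0217), and after cyclic loess -0.75 (0.0172) and -0.68 (0.0353). Both falls lost their call without the letter a sample of mechanical ventilation with 100% oxygen (0.0557 and 0.104). The oxygen fall also lost it without letter b of mechanical ventilation with 21% oxygen (0.0575), and the ventilation fall without letter b of spontaneous breathing with 100% oxygen (0.117).

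Over the 8 samples, which share their group structure, Pearson's r was 0.026 between the Sod1 probe sets M25157mRNA_i_at and Y00404_s_at, 0.674 between M25157mRNA_i_at and M21060_s_at, and 0.733 between M21060_s_at and Y00404_s_at. The gene therefore has no single direction with oxygen here: averaged over breathing, M25157mRNA_i_at rose by 0.49 ± 0.08 (limma, adjusted p = 0.00539) and Y00404_s_at fell by 0.59 ± 0.14 (adjusted p = 0.0207). Heart muscle markers had the same high group as M25157mRNA_i_at, with sums over all 10 of 23830 to 25700 in spontaneous breathing with 100% oxygen and at most 14970 elsewhere. Within that list the means of Tnnt2 and Tnni3 were highest there too. The mean of Myh6 was highest in mechanical ventilation with 100% oxygen, at 443 against 410 in spontaneous breathing with 100% oxygen. The skeletal muscle sums given beside Sod3 also peaked in spontaneous breathing with 100% oxygen, and the part of muscle in the Sod1 values was not tested.

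**Figure D2:**
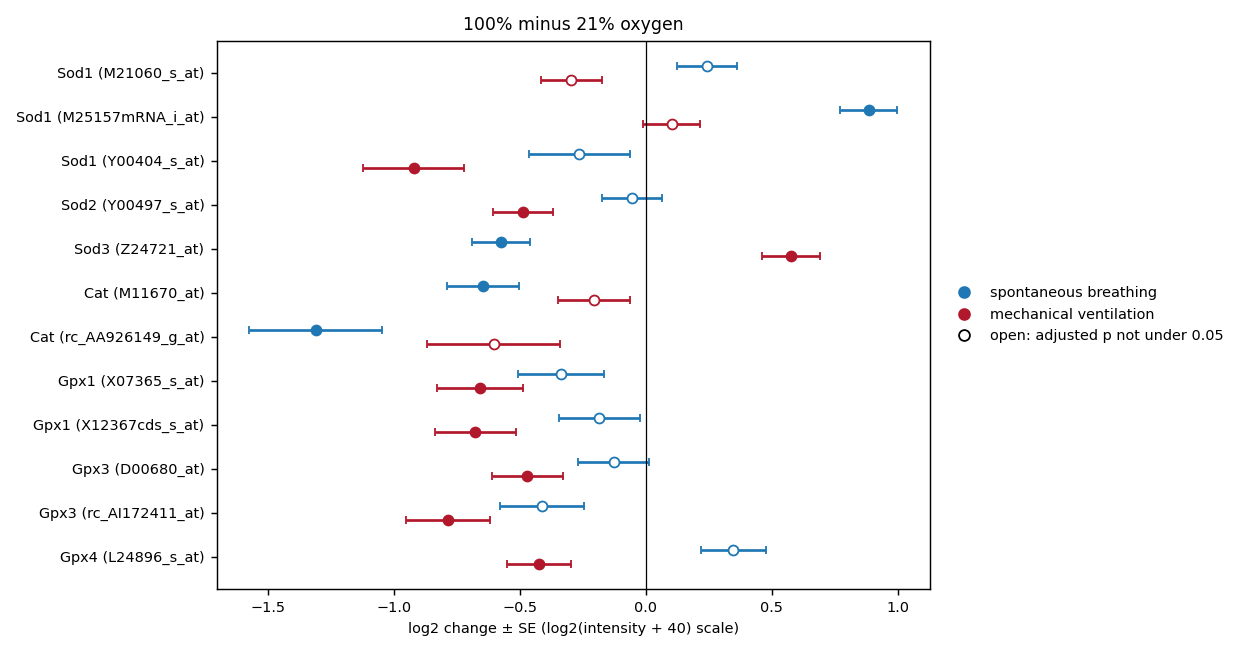
Change with 100% against 21% oxygen (log2 of intensity + 40, horizontal axis) for each tested probe set in spontaneous breathing and in mechanical ventilation, with standard errors from limma (2 samples per group). Sod3 lies at -0.58 in spontaneous breathing and 0.58 in mechanical ventilation, while the glutathione peroxidases lie below 0 in mechanical ventilation.

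Catalase was lowest in spontaneously breathing lungs with 100% oxygen by both of its tested probe sets. M11670_at was at 1141 and 1371 in spontaneous breathing with 21% oxygen and at 775 and 796 with 100% oxygen. In mechanical ventilation it was at 1288 and 1138 with 21% oxygen and at 1009 and 1080 with 100% oxygen. The spontaneous samples with 100% oxygen were below every other sample, and the groups with 21% oxygen overlapped. The fall with oxygen in spontaneous breathing was 1.56-fold, by 0.65 ± 0.14 (limma, adjusted p = 0.021), and the change in mechanical ventilation was -0.21 ± 0.14 (adjusted p = 0.292).

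The Cat probe set rc_AA926149_g_at was at 554 and 587 in spontaneous breathing with 21% oxygen and at 282 and 148 with 100% oxygen. In mechanical ventilation it was at 888 and 676 with 21% oxygen and at 478 and 516 with 100% oxygen. Its order of groups put the spontaneous samples with 100% oxygen last again, with no overlap between any groups. It fell by 1.31 ± 0.26 with oxygen in spontaneous breathing, 2.48-fold (limma, adjusted p = 0.0156), and its oxygen change in mechanical ventilation was -0.60 ± 0.26 (adjusted p = 0.11). That change passed the threshold after quantile normalization at -0.82 (0.0424) and after cyclic loess at -0.85 (0.0323), where M11670_at had -0.38 (0.0856) and -0.43 (0.0578). With 100% oxygen it rose by 1.13 ± 0.26 under ventilation (limma, adjusted p = 0.0185), with 0.92 (0.0384) and 0.87 (0.0418) after quantile and cyclic loess normalization. The same change of M11670_at was 0.39 ± 0.14 and was not called (adjusted p = 0.077), and it was 0.19 (0.402) and 0.15 (0.49) after these scalings.

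The oxygen effect on catalase was not shown to differ between the ways of breathing, since the interactions of 0.44 ± 0.20 and 0.71 ± 0.37 missed the threshold (limma, adjusted p = 0.141 and 0.193). Averaged over breathing, Cat fell with oxygen by 0.43 ± 0.10 (adjusted p = 0.02) and 0.96 ± 0.19 (0.0105), and quantile normalization gave -0.51 and -1.05. The fall of M11670_at in spontaneous breathing lost its call without letter b of 21% oxygen (limma, adjusted p = 0.0819) or either sample of 100% oxygen (0.0878 and 0.0783). That of rc_AA926149_g_at lost it without either sample of 21% oxygen (0.0534 and 0.0559) or letter b of 100% oxygen (0.0574). Its rise with ventilation lost it without either sample of mechanical ventilation with 100% oxygen (0.0736 and 0.067) or letter b of spontaneous breathing with 100% oxygen (0.0866). The third Cat probe set was between -36.8 and 30.7 in all samples and was not tested. The muscle marker sums that were highest in the group with the lowest Cat values are those given for Sod3 and Sod1, and their part in the fall was not tested.

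Gpx1, the main intracellular glutathione peroxidase, was lowest in ventilated lungs with 100% oxygen. Its probe set X12367cds_s_at was at 14167 and 12286 in spontaneous breathing with 21% oxygen and at 9992 and 13457 with 100% oxygen. In mechanical ventilation it was at 11186 and 12415 with 21% oxygen and at 7124 and 7629 with 100% oxygen. The last group was below every other sample, and the other 3 overlapped. X07365_s_at had the same lowest group, at 5683 and 6344 against 7484 or more elsewhere, and correlated with the first at r = 0.982 over the 8 samples.

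On the deposited scale Gpx1 fell with oxygen in ventilated lungs by 0.68 ± 0.16 (limma, adjusted p = 0.0135) and 0.66 ± 0.17 (0.0197) for X12367cds_s_at and X07365_s_at. With ventilation at 100% oxygen the probe sets fell by 0.65 ± 0.16 (0.0218) and 0.55 ± 0.17 (0.0467). After quantile normalization the oxygen changes were -0.08 (adjusted p = 0.37) and -0.27 (0.0697) and the ventilation changes -0.09 (0.394) and -0.16 (0.266), so all 4 calls were lost. Cyclic loess lost them too, with adjusted p between 0.0872 and 0.245. Without letter a of mechanical ventilation with 100% oxygen they were lost as well, with adjusted p between 0.0843 and 0.206. At least 1 of the 4 was also lost without letter b of that group, either sample of mechanical ventilation with 21% oxygen or letter b of spontaneous breathing with 100% oxygen (0.0502 to 0.204). The third Gpx1 probe set was at or below 0 on all 9 arrays.

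Gpx3, the extracellular glutathione peroxidase, had the same lowest group. Its probe set rc_AI172411_at was at 16229 and 13781 in spontaneous breathing with 21% oxygen and at 9580 and 13190 with 100% oxygen. Ventilated samples were at 11070 and 11888 with 21% oxygen and at 6416 and 6917 with 100% oxygen, with no overlap between that group and the rest. D00680_at was at 5046 and 5740 in the last group against 7184 or more elsewhere, and r between the probe sets was 0.97.

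In ventilated lungs rc_AI172411_at fell with oxygen by 0.79 ± 0.17 (limma, adjusted p = 0.00897) and D00680_at by 0.47 ± 0.14 (0.0329). At 100% oxygen the falls with ventilation were 0.76 ± 0.17 (0.0155) and 0.60 ± 0.14 (0.0182). Quantile normalization left -0.25 for rc_AI172411_at in both comparisons, still called at 0.0283 and 0.038. It left -0.26 (0.0792) and -0.34 (0.0439) for D00680_at. Cyclic loess kept 1 of these 4 calls, with oxygen and ventilation changes of -0.39 (0.0327) and -0.36 (0.0544) for rc_AI172411_at and -0.18 (0.208) and -0.32 (0.0569) for D00680_at. Without letter a of mechanical ventilation with 100% oxygen the 4 calls were lost, with adjusted p between 0.0625 and 0.182. At least 1 was also lost without letter b of that group, either sample of mechanical ventilation with 21% oxygen or letter b of spontaneous breathing with 100% oxygen (0.052 to 0.158).

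Gpx4, which acts on lipid peroxides, differed from Gpx1 and Gpx3 in its highest group. It was at 5555 and 6115 in spontaneous breathing with 21% oxygen and at 6820 and 8087 with 100% oxygen. In mechanical ventilation it was at 6698 and 6567 with 21% oxygen and at 4636 and 5251 with 100% oxygen. No groups overlapped, and ventilated lungs with 100% oxygen were lowest while spontaneously breathing lungs with 100% oxygen were highest. With oxygen Gpx4 fell by 0.42 ± 0.13 in ventilated lungs (limma, adjusted p = 0.0355), and its change in spontaneous breathing was 0.35 ± 0.13 (adjusted p = 0.103). The interaction of -0.77 ± 0.18 was called (adjusted p = 0.017), and with 100% oxygen Gpx4 fell by 0.59 ± 0.13 under ventilation (0.0155).

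After quantile normalization the Gpx4 interaction was -0.56 (adjusted p = 0.0193) and the ventilation change -0.41 (0.0217), both still called, while the oxygen change in ventilated lungs was -0.28 (0.0587). Cyclic loess gave -0.56 (0.0249), -0.35 (0.0456) and -0.18 (0.211) in the same order. Without letter a of mechanical ventilation with 100% oxygen the adjusted p was 0.0672 for the interaction, 0.101 for ventilation and 0.195 for oxygen. The interaction also lost its call without either sample of mechanical ventilation with 21% oxygen (0.0557 and 0.0522). The ventilation change lost it without letter b of spontaneous breathing with 100% oxygen (0.0718), and the oxygen fall without letter b of mechanical ventilation with 100% oxygen (0.0563) or either sample with 21% oxygen (0.136 and 0.119).

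The summed markers of every list checked were lowest in the same group as the glutathione peroxidases, although not every single marker was. The lists were of lung epithelium, muscle, fat and blood and immune cells, so low sums there were not particular to any of them. For example, sums over 5 of 8 neutrophil markers were 13570 to 13760 there and 17660 or more elsewhere. Sums over 3 of 4 airway secretory markers were 8859 to 9024 there and 9452 or more elsewhere. Sums over 5 of 7 alveolar type 2 markers were 63330 to 79130, 44260 to 59110 and 52400 to 57480 in spontaneous breathing with 21% and 100% oxygen and in mechanical ventilation with 21% oxygen, and 30930 to 33680 in mechanical ventilation with 100% oxygen. Sums over 4 of 10 red blood cell markers were 32880 to 40580, 25260 to 33670, 23280 to 29450 and 14150 to 16830 in the same order of groups. Within the red blood cell list Hbb, a haemoglobin chain, had means of 17400, 10658, 10534 and 3737. Alas2, the red cell enzyme of haem synthesis, had 5918, 9777, 6666 and 6176. The part of these cells and of the arrays' lower ceiling in the falls of Gpx1, Gpx3 and Gpx4 was not tested.

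**Figure D3:**
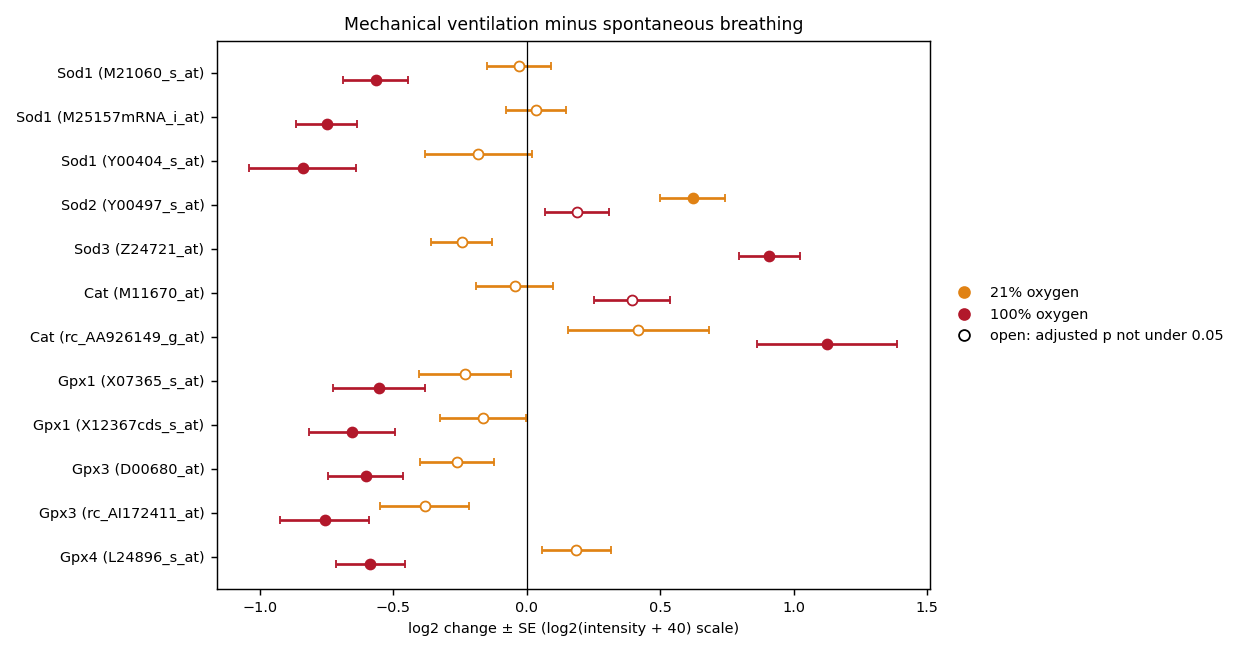
Change with mechanical ventilation against spontaneous breathing (log2 of intensity + 40, horizontal axis) for each tested probe set at 21% and at 100% oxygen, with standard errors from limma (2 samples per group). Sod2 is the 1 called change at 21% oxygen, at 0.62, and Sod3 and a Cat probe set lie furthest above 0 at 100% oxygen, at 0.91 and 1.13.

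Counted over the 12 probe sets on the deposited scale, ventilation at 100% oxygen changed 10 of 12, with 2 higher (Sod3 and Cat) and 8 lower (Sod1, Gpx1, Gpx3 and Gpx4), against 26.9% of all probe sets. Without letter a or b of mechanical ventilation with 100% oxygen the count was 2 and 5, and without letter b of spontaneous breathing with 100% oxygen it was 3. Ventilation at 21% oxygen changed 1 of 12, Sod2, against 14.5%. Oxygen in mechanical ventilation changed 8 of 12, with 1 higher (Sod3) and 7 lower, against 35.1%. Without letter a or b of mechanical ventilation with 100% oxygen that count was 2 and 4, and without letter a or b of mechanical ventilation with 21% oxygen 4 and 1. Oxygen in spontaneous breathing changed 4 of 12, with 1 higher (Sod1) and 3 lower (Sod3 and both of Cat), against 16.8%. It was 1 without letter b of 21% oxygen and 2 without letter b of 100% oxygen, 5 (2 higher, 3 lower) after quantile normalization and 6 (2 higher, 4 lower) after cyclic loess. Of the directions, 16.6% of all probe sets were higher and 10.4% lower for ventilation at 100% oxygen, and 20.7% and 14.4% for oxygen in mechanical ventilation. For ventilation at 21% oxygen they were 7% and 7.49%, and for oxygen in spontaneous breathing 7.06% and 9.71%. Probe sets of a gene share their transcript and are not independent. The counts under other scalings or with a sample left out are given without the matching share of all probe sets.

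For ventilation at 100% oxygen the members' median change was -0.58 and that of all tested probe sets 0.13. For oxygen in mechanical ventilation these were -0.48 and 0.14. Because the median of all tested probe sets was over 0.1 in these comparisons, some changes are also given relative to it. With ventilation at 100% oxygen they were -0.88 for Gpx3 (rc_AI172411_at), -0.71 for Gpx4 and 0.78 for Sod3. With quantile normalization the members' medians were -0.12 and -0.26, and 7 (2 higher, 5 lower) and 6 (2 higher, 4 lower) were called. With cyclic loess 5 were called in both, of which 3 and 4 were lower, and 6 were called for oxygen in spontaneous breathing. The shares of all probe sets called under these scalings are not given, so these counts do not rank the comparisons.

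Averaged over breathing, oxygen changed 7 of 12 member probe sets, 1 higher and 6 lower, against 25.0% of all probe sets, 12.8% higher and 12.2% lower. Quantile normalization also gave 7, with 2 higher and 5 lower. The falls were those of both Cat, both Gpx1, 1 Gpx3 and 1 Sod1 probe set. The count was 4 without letter a of spontaneous breathing with 21% oxygen, 3 without letter a of mechanical ventilation with 100% oxygen, and 3 and 4 without letter a and b of mechanical ventilation with 21% oxygen. Averaged over oxygen, ventilation changed 6 of 12, 3 higher (Sod2, Sod3 and Cat) and 3 lower (both Gpx3 and 1 Sod1), against 9.10% of all, 4.84% higher and 4.25% lower. This count was less stable: leaving out 1 sample gave between 0 and 8, and it was 0 without letter a of spontaneous breathing with 21% oxygen, letter a of mechanical ventilation with 100% oxygen or either sample of mechanical ventilation with 21% oxygen, with 10 at an unadjusted limma p under 0.05 in each of these 4 fits. Quantile normalization left 1 call, lower, and cyclic loess 3, of which 2 were higher. The shares of all probe sets called under these alternatives are not given, so the counts do not tell the members from the whole array.

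The interaction was called for 4 of 12 member probe sets, 1 higher (Sod3) and 3 lower (2 of Sod1 and Gpx4), against 27.4% of all probe sets, 16.9% higher and 10.5% lower. It was 2 without letter a of mechanical ventilation with 100% oxygen or without either sample of mechanical ventilation with 21% oxygen, and 7 without letter a of spontaneous breathing with 100% oxygen. The count and its split were the same after quantile and cyclic loess normalization, although Sod1 M21060_s_at was not among the calls then and Sod2 was. The matching shares of all probe sets are not given here either. The 4 comparisons within a level share groups in pairs, so the calls above are not separate pieces of evidence. Of the 40 called changes over the 7 comparisons, 4 kept their call under every alternative tried: oxygen in spontaneous breathing and ventilation at 100% oxygen for Sod1 M25157mRNA_i_at, and oxygen in mechanical ventilation and ventilation at 100% oxygen for Sod3.

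**Figure D4:**
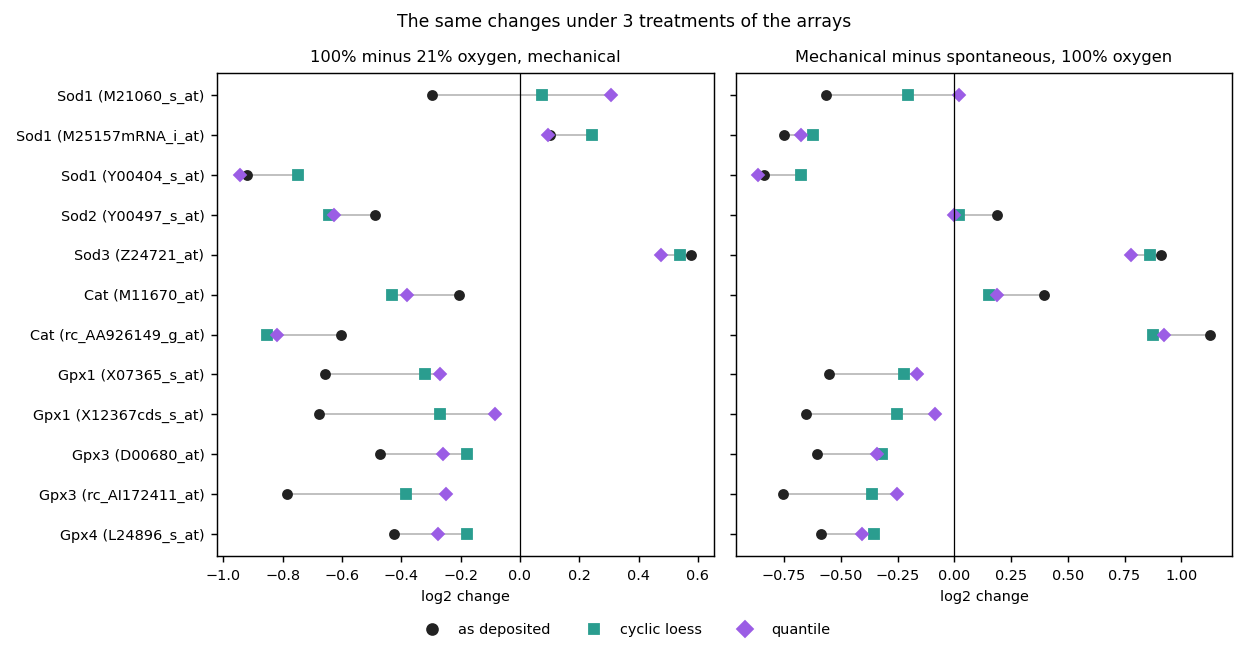
Log2 change of each tested probe set with ventilation at 100% oxygen, on the deposited scale and after quantile and cyclic loess normalization. The bright Gpx1 probe set X12367cds_s_at moves from -0.65 to -0.09 with quantile normalization, and Sod3 from 0.91 to 0.78.

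A technical label also ran across the groups. The descriptions of both spontaneous samples with 21% oxygen, of letter a of mechanical ventilation with 100% oxygen and of 1 array of its letter b held an empty field for a lot batch, and the others had no such field. This field was used as a block in a fit of all 9 arrays, in which the 2 arrays of 1 sample counted separately. The 7 calls for oxygen averaged over breathing and the 6 for ventilation averaged over oxygen were all kept. Gpx3 D00680_at was also called for the first, and Gpx1 X12367cds_s_at, Sod1 M21060_s_at and Sod1 Y00404_s_at for the second. Of the other comparisons, 1 member call was left for oxygen in spontaneous breathing, 2 for oxygen in mechanical ventilation, 0 for ventilation at 21% oxygen, 2 for ventilation at 100% oxygen and 0 for the interaction. At an unadjusted limma p under 0.05 there were 3 for ventilation at 21% oxygen and 3 for the interaction. The share of all probe sets called with this block is not given. These counts therefore do not tell a loss of calls in the members from a loss over the whole array. The block is told from the groups only by the 2 arrays of 1 sample. The adjusted p of the Sod3 interaction was then 0.0717 and that of the Sod1 M25157mRNA_i_at interaction 0.053 (limma). Among the arrays without the field, mechanical ventilation with 100% oxygen had only 1 array, and each other group had 2. A lower count on them cannot be told from the loss of arrays. On the arrays without the field alone, which compare 3 groups, 2 members were called for oxygen in mechanical ventilation and 2 for ventilation at 100% oxygen.

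Genes that work beside these enzymes were taken from 7 lists, by their brightest probe set. In the peroxiredoxin and thioredoxin list 8 of 14 genes were tested, and with oxygen averaged over breathing 1 rose and 2 fell, where 12.8% of all probe sets were higher and 12.2% lower. Txnrd1, the reductase that recharges thioredoxin, rose by 0.74 ± 0.14 (limma, adjusted p = 0.00933). Txnip, an inhibitor of thioredoxin, fell by 0.49 ± 0.11 (0.0142), and also by 0.56 ± 0.11 with ventilation averaged over oxygen (0.0217). Prdx6, a peroxiredoxin abundant in lung, fell by 0.42 ± 0.10 with oxygen (0.02), which quantile normalization reduced to under the call.

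In glutathione synthesis and recycling, 4 of 10 genes were tested. Idh1, a source of NADPH, fell with oxygen by 0.29 ± 0.08 (limma, adjusted p = 0.0356), and Me1, another NADPH source, rose with ventilation by 0.67 ± 0.14 (0.0307). Of the other glutathione peroxidases 2 of 5 were tested and 0 were called in any of the 7 limma comparisons, with 1 gene each at an unadjusted p under 0.05 for oxygen in spontaneous breathing, ventilation at 100% oxygen and the interaction. In the selenium list 5 of 12 were tested, and Scly, which releases selenium from selenocysteine, rose with oxygen averaged over breathing by 0.61 ± 0.18 (0.0403). Its oxygen change was 0.08 in spontaneous breathing (limma, adjusted p = 0.864) and 1.15 in mechanical ventilation (0.0104), and the interaction missed the threshold (0.0588). In the peroxisome list 10 of 20 were tested, and Ech1, a fatty acid oxidation enzyme, fell with oxygen by 0.60 ± 0.10 (0.0057). With oxygen in spontaneous breathing, 3 of these 10 fell, where 9.71% of all probe sets were lower. These were Ech1 by 0.62 ± 0.14 (limma, adjusted p = 0.0223) and, singled out after their values were seen, the beta-oxidation enzyme Hsd17b4 by 0.71 ± 0.12 (0.00853) and the membrane transporter Abcd3 by 0.53 ± 0.15 (0.0461). The Abcd3 call was lost under 13 of 20 alternatives, that of Hsd17b4 under 2.

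Among producers of superoxide and peroxide, 6 of 18 genes were tested. Xdh, the xanthine oxidoreductase that can release superoxide, was at 7038 ± 1245 (SD, n = 2) in spontaneous breathing with 21% oxygen and at 2469 ± 229 with 100% oxygen. In mechanical ventilation it was at 3763 ± 93.6 with 21% oxygen and at 5683 ± 39.0 with 100% oxygen. Like Sod3 it was lower with oxygen in spontaneous breathing and higher with oxygen in ventilated lungs: it fell by 1.49 ± 0.14 (limma, adjusted p = 6.73e-04) and rose by 0.59 ± 0.14 (0.0141). Its interaction of 2.08 ± 0.20 (limma, adjusted p = 4.52e-04) kept its call under every alternative tried, up to 0.0207. Nos2, the inducible nitric oxide synthase, rose with ventilation averaged over oxygen by 0.76 ± 0.18 (0.0421). Its ventilation change was 0.42 at 21% oxygen (limma, adjusted p = 0.314) and 1.10 at 100% oxygen (0.0185), and the interaction missed the threshold (0.199).

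In copper and iron handling 2 of 14 genes were tested. Cp, the copper-carrying ferroxidase ceruloplasmin, was at 989 ± 82.2 and 805 ± 9.02 in spontaneous breathing with 21% and 100% oxygen (SD, n = 2) and at 627 ± 83.4 and 1267 ± 47.7 in mechanical ventilation. It rose with oxygen in ventilated lungs by 0.98 ± 0.15 (limma, adjusted p = 0.00232), with an interaction of 1.26 ± 0.21 (0.00377). The iron transporter Slc11a2 rose with ventilation by 0.62 ± 0.12 (0.0254). Each call of a list gene named here from an averaged comparison was lost under at least 1 alternative. The losses ran from 1 of 20 alternatives for Ech1 to 13 of 19 for Nos2, with 11 of 20 for both Scly and Idh1. The averaged calls of Prdx6, Scly, Nos2 and Slc11a2 were lost after both quantile and cyclic loess normalization.

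The genes whose log2 values ran most nearly with each member over the 8 samples were taken from 3180 others by Pearson's r, with each gene by its brightest probe set. Gpx1 was closest to Rpl24 (0.997), Rps23 (0.994) and Rps16 (0.992), and Gpx3 to Rps29 (0.999), Cst3 (0.997) and Rpl11 (0.996). Most of these are genes for ribosomal proteins. Sod2 was closest to Cd8b (0.990), a T cell coreceptor chain, and then to Psmd13 (0.969) and Apex1 (0.961). Sod3 was closest to Ap2b1 (0.988), Actn4 (0.986) and Hmox2-ps1 (0.985), and Cat to Rab33b (0.980), Stat5a (0.960) and Tpst2 (0.946). Sod1 by M21060_s_at was closest to Gabarap (0.989), Id3 (0.979) and Tpm1 (0.977), and Gpx4 to Pomp (0.964), Tspo (0.961) and Rack1 (0.959). The samples share arrays, scaling and 4 groups, and these values are descriptions.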

How the data were processed

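Each sample was total RNA of rat lung, per the labels, and its group and letter came from titles and descriptions. The authors' deposited values are one intensity per probe set (8799 on 9 arrays). Their 2% trimmed means of 801 on every array show a common scaling. The software that made them is not given in the sources used here. The 59 control probe sets were left out. Values below 0 were set to 0, and log2(intensity + 40) was taken. The 2 arrays of 1 sample were averaged. Probe sets in the lowest 40% by mean were set aside untested.

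A group-means model over 8 samples (4 residual degrees of freedom) was fitted in R 4.3.3 with limma 3.58.1 (eBayes with a variance trend), with 7 contrasts and Benjamini-Hochberg adjustment over the 5244 tested probe sets at 0.05. The fit was tested on simulated data. Gene symbols came from the array's annotation, in which 7006 probe sets had 1 symbol, 308 had several and 1426 had none. Promoters came from RefSeq (GRCr8). Figures were drawn with matplotlib 3.10.9.

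Named genes were the members, up to 3 genes from each of 7 lists with the smallest p among those called in an averaged comparison, the 3 genes most like each member, and defining markers. The members and lists were chosen with earlier results of these data known. Alternatives were other normalization, offset, filter, use of the repeated arrays, replicate letter or lot field as a block, no variance trend, other samples in the fit, and each sample left out. Array number, not depth, limits the precision.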

Additional observations from a re-analysis of the deposited data

Results flagged for a closer look

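The interaction term of the limma fit was called for 4 of the 12 tested member probe sets, against 27.4% of all probe sets. Among the list genes named from an averaged comparison, it was called for Xdh and Cp. With the lot field as a block, the calls of the 4 member probe sets and of Cp were lost, and that of Xdh was kept. Given as the change in mechanical ventilation minus that in spontaneous breathing on the log2 scale, the interaction was 1.15 for Sod3 (Z24721_at, adjusted p = 0.00219), -0.78 for Sod1 (M25157mRNA_i_at, 0.00925), -0.77 for Gpx4 (L24896_s_at, 0.017) and -0.54 for Sod1 (M21060_s_at, 0.0486). For the producer gene Xdh it was 2.08 (adjusted p = 4.52e-04), and for Cp it was 1.26 (0.00377). The M21060_s_at value came to -0.03 after quantile normalization (adjusted p = 0.869), while the values for Sod3, M25157mRNA_i_at and Gpx4 were 1.07, -0.64 and -0.56 and kept their calls.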

How the results depend on the processing

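Of the 40 called member changes, 36 lost the call under at least 1 alternative, and 1 of 814 alternative values had the opposite sign. Of 44 changes not called, 17 passed under some alternative. Counts below are member probe sets called. The share of all probe sets called under each alternative is not given beside them. They therefore do not show whether the members lost more calls than other probe sets did. Every member call of the averaged comparisons was kept with the lot field as a block. Oxygen averaged over breathing gave 7, with 3 without the filter, 0 with 1 factor and 3 to 7 with 1 sample left out. Ventilation averaged over oxygen gave 6, with 1 after quantile normalization, 3 after cyclic loess, 1 with the array s2A only, 0 without the variance trend, 0 with 1 factor and 0 to 8 with 1 sample left out. Oxygen in spontaneous breathing gave 4, with 5 after quantile normalization, 6 after cyclic loess, 1 under the lot field as a block and 1 to 4 leaving out 1 sample. Oxygen in mechanical ventilation gave 8, with 5 after loess, 4 without the filter, 2 with the lot block, 2 on arrays without the field (chosen after seeing the data) and 1 to 10 leaving out 1 sample. Ventilation at 21% oxygen gave 1, with 2 without the filter, 0 with the lot block and 0 to 1 leaving out 1 sample. Ventilation at 100% oxygen gave 10, with 5 after loess, 5 without the filter, 2 with the lot block, 2 on arrays without the field and 2 to 10 leaving out 1 sample. The interaction gave 4, with 0 under the lot block and 2 to 7 leaving out 1 sample. After quantile normalization Sod1 M21060_s_at reversed to 0.32 for oxygen averaged, 0.31 for oxygen in mechanical ventilation and 0.0194 for ventilation at 100% oxygen, and Prdx6 to 0.0215 and 0.0814 for the last 2 comparisons.

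No pairing of samples by the letters a and b was seen across groups: deviations correlated between -0.13 and 0.07 over 6 pairs of groups. Low correlations cannot exclude a shared origin of samples with the same letter, and no label settles it. With the letter as a replicate block the counts, in the order above, were 7, 2, 4, 8, 1, 9 and 3. With 2 samples a group, 4 residual degrees of freedom and no detection calls, small changes may be missed.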
